A study of Homo sapiens with 24 samples.

Results

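The proteasome subunits and their helpers are the 46 genes whose symbols join PSM, a letter A to G and a number, without the interferon-induced core subunits PSMB8 and PSMB9. They were picked by a rule on names that uses no measured value, out of 28008 genes in the first table and 60221 in the second. Earlier results of these data were known when they were chosen. RNA was sequenced from A375, an established human melanoma cell line whose labels call it epithelial. The cells were transfected with a pcDNA3.1 plasmid with a CAG promoter and puromycin resistance. All samples had 2 µg/mL puromycin, 10% fetal bovine serum and 48 h of growth. The insert was the long noncoding RNA SLNCR, whole (FL) or without 1 of the regions predicted to form triplexes with DNA (TFR), or nothing (empty vector). Batch 1 held ΔTFR1, ΔTFR2, FL and empty vector, and batch 2 held ΔTFR4, ΔTFR5, FL and empty vector, with 3 biological replicates in each of the 8 groups. All groups carried the same plasmid backbone and drug, and the cells' own SLNCR gene was read in empty vector libraries too. The design asks which genes depend on these regions.

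The proteasome is the protease that degrades proteins tagged with ubiquitin. Its core particle is a barrel of alpha rings, which gate the entry, around beta rings, which hold the catalytic sites. A regulatory particle sits on the core, with a base of ATPases that unfold the substrate and a lid that takes off its ubiquitin. Other caps, the PSME activators, open the core without ubiquitin, PSMF1 inhibits it in vitro, and PSMG and some PSMD proteins are chaperones that leave before the particle is finished. In human cells NFE2L1 is a transcription factor that raises the subunit genes together when proteasome activity falls, and it binds antioxidant response elements in their promoters with a small MAF protein.

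Of the 46 members, 44 passed the filter on low counts in each batch: 7 core alpha, 7 core beta, the immune-type core subunit PSMB10, 9 base, 8 lid, 4 activator, 1 inhibitor, 4 core chaperone and 3 base chaperone genes. PSMA8, the alpha subunit of the testis, had 0 counts in batch 1 and 4 in batch 2 over 12 libraries. PSMB11, the beta subunit of the thymus cortex, had 2 counts in batch 1 and 4 in batch 2. Both were therefore not tested.

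Libraries held 8627449 to 10789211 counts in batch 1 and 24810226 to 33063445 in batch 2. SLNCR was high wherever it was put in. In batch 1 its gene, named LINC00673 there, lay at 191 to 205 CPM (counts scaled by library size, on the usual scale of edgeR) with ΔTFR1, 187 to 206 with ΔTFR2, 165 to 240 with FL and 18.9 to 20.8 with empty vector. In batch 2, where LINC00511 holds it, the ranges were 444 to 515 CPM with ΔTFR4, 192 to 376 with ΔTFR5, 334 to 728 with FL and 27.9 to 30.1 with empty vector. Of 9 melanocytic markers, MITF and SOX10 were present in all libraries and TYR was at 0 in all 12 of batch 1 and in 7 of batch 2. S100B was at 0 in all 12 of batch 1 and had a median of 0.218 CPM in batch 2. Medians in batches 1 and 2 were 0.756 and 0.849 CPM for PMEL, 1.58 and 0.763 for MLANA and 0.332 and 0.15 for DCT. They were 1.66 and 2.52 for S100A1 and 0.0467 and 11.5 for MIA, so most of the list was low. Of the 7 epithelial markers, KRT8 and KRT18 made up nearly all of the sum. Their medians were 159 and 345 CPM in batch 1 and 120 and 455 in batch 2. The median CPM of EPCAM was 0.218 in batch 1 and 0.0746 in batch 2. Whether the epithelial label holds was not tested. Endothelial and fibroblast lists summed to at most 2.22 and 6.31 CPM in any library.

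Promoter sequences, read from RefSeq on GRCh38.p14, covered 40 of the 46 members, and the 250 bases before the start site of 5 of them are shown because the batch 2 results turn on 4 of these genes, while PSME1 stands for genes that did not fall. Both strands were searched for TGACNNNGC, the core of the antioxidant response element, and for CCAAT, the box bound by NF-Y, 2 motifs that do not overlap one another in the windows shown. Matches are in capitals, on the strand that the gene is read from, so that a CCAAT on the other strand reads ATTGG. The windows are chr17:32444260-32444509 (plus strand) for PSMD11, chr14:58244593-58244842 (plus) for PSMA3, chr17:67366578-67366827 (minus) for PSMD12, chr21:39183452-39183701 (minus) for PSMG1 and chr14:24135944-24136193 (plus) for PSME1.
PSMD11: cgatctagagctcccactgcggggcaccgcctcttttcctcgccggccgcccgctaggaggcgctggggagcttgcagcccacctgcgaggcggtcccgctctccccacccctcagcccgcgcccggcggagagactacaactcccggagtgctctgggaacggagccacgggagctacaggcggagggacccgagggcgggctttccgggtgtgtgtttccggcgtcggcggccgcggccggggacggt
PSMA3: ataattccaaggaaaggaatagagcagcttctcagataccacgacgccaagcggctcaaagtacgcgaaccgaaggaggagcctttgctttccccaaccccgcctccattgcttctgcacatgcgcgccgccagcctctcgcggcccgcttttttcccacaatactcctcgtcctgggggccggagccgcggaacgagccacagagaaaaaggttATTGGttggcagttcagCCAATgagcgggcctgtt
PSMD12: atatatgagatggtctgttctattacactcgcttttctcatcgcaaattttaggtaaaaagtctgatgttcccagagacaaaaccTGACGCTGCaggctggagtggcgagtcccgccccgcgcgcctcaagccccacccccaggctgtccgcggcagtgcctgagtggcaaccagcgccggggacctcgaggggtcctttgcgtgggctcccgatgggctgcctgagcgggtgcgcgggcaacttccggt
PSMG1: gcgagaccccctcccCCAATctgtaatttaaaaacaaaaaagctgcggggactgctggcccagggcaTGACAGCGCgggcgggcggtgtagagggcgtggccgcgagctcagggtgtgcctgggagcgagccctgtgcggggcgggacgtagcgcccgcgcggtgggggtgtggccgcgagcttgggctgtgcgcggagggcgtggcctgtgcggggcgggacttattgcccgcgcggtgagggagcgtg
PSME1: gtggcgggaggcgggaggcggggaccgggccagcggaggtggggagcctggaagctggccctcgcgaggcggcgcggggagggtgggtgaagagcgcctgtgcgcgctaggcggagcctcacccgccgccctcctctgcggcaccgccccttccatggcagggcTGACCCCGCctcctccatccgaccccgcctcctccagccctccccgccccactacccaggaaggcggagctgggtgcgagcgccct

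PSMD11 held neither motif in its window. PSMA3 held CCAAT at 35 to 31 and at 18 to 14 bases before its start. The antioxidant core lay 165 to 157 bases before the start of PSMD12, 183 to 175 before that of PSMG1 and 86 to 78 before that of PSME1. Of the 38 tested members with a sequence, 12 (31.6%) held the antioxidant core, while 13.2% of 27305 genes held it in windows of the same length. CCAAT was found in 17 of the 38 (44.7%) and in 37% of all genes.

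Levels of the members in empty vector cells spanned a wide range when divided by the length of the longest transcript. PSMD2, a scaffold of the base, had 229 CPM per kilobase in batch 1 and 212 in batch 2, and PSMB7, the trypsin-like catalytic subunit, had 229 and 171. PSMA7 had 250 CPM per kilobase in batch 1 and 141 in batch 2, and PSMB3 had 184 and 150. The lowest tested member was PSMG4, a core chaperone, at 1.61 and 1.48 CPM per kilobase. Among the 14 core subunits, which the finished particle holds in equal numbers, the highest level per kilobase exceeded the lowest (PSMA6) by 10.6-fold in batch 1 and 12.7-fold in batch 2. Undivided, PSMA6 had 112 CPM and PSMA7 256 in batch 1, with longest transcripts of 4730 and 1023 bases. In batch 2 PSMA6 had 63.8 CPM and PSMB7, of 980 bases, 168. Which transcripts the cells held was not tested, so the span may owe much to the lengths chosen. The rank order over the 44 members was similar with lengths of the longest transcript and of the union of exons. Spearman's rho between them was 0.964 in batch 1 and 0.973 in batch 2. Both lengths include the longest transcript, so this does not check which transcripts were present. The batches were quantified by different means, and their levels are set side by side and not tested.

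**Figure D1:**
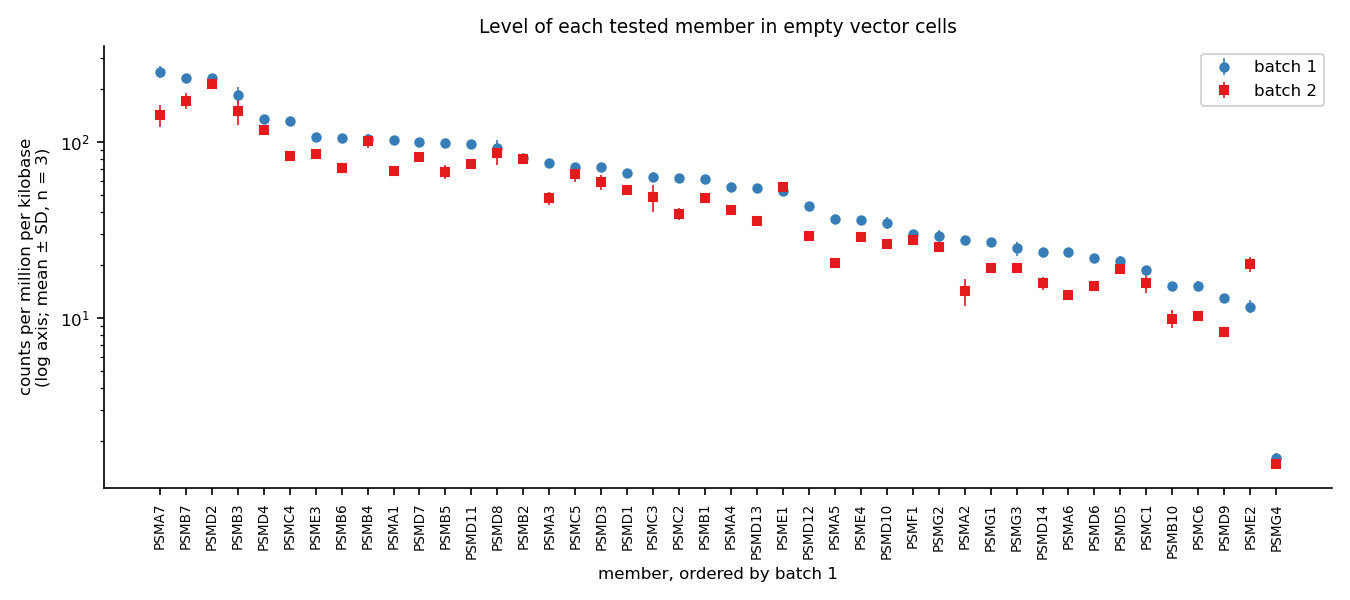
Level of the 44 tested members in empty vector cells, in CPM per kilobase of the longest transcript on a log axis, as mean ± SD of 3 libraries in batch 1 (circles) and batch 2 (squares), ordered by batch 1. PSMA7, PSMB7, PSMD2 and PSMB3 lead in batch 1 and PSMG4 is lowest in both batches, at 1.61 and 1.48.

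In batch 2 RNA of proteasome genes was lower with ΔTFR4 than with empty vector for 9 of 14 core, 4 of 9 base and 3 of 8 lid members. Of the 44 members, 18 fell and 0 rose by edgeR's quasi-likelihood test at an adjusted p under 0.05. Over all 18763 tested genes 23.9% were called, 11.4% lower and 12.5% higher, and among the 9891 genes at a mean of at least 10 CPM, where most members lie, 15.9% were called lower. The median log2 fold change of the members was -0.43, a change of -25.6%, beside 0.02 for all genes, and 38 of the 44 lay below 0. The medians were -0.56 in the core, -0.42 in the base and -0.45 in the lid. Of the 4 activators 0 were called at a median of -0.25, by edgeR and by DESeq2, and 2 had an unadjusted p under 0.05. In bulk RNA, fewer transcripts per cell and fewer cells that make them cannot be told apart.

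**Figure D2:**
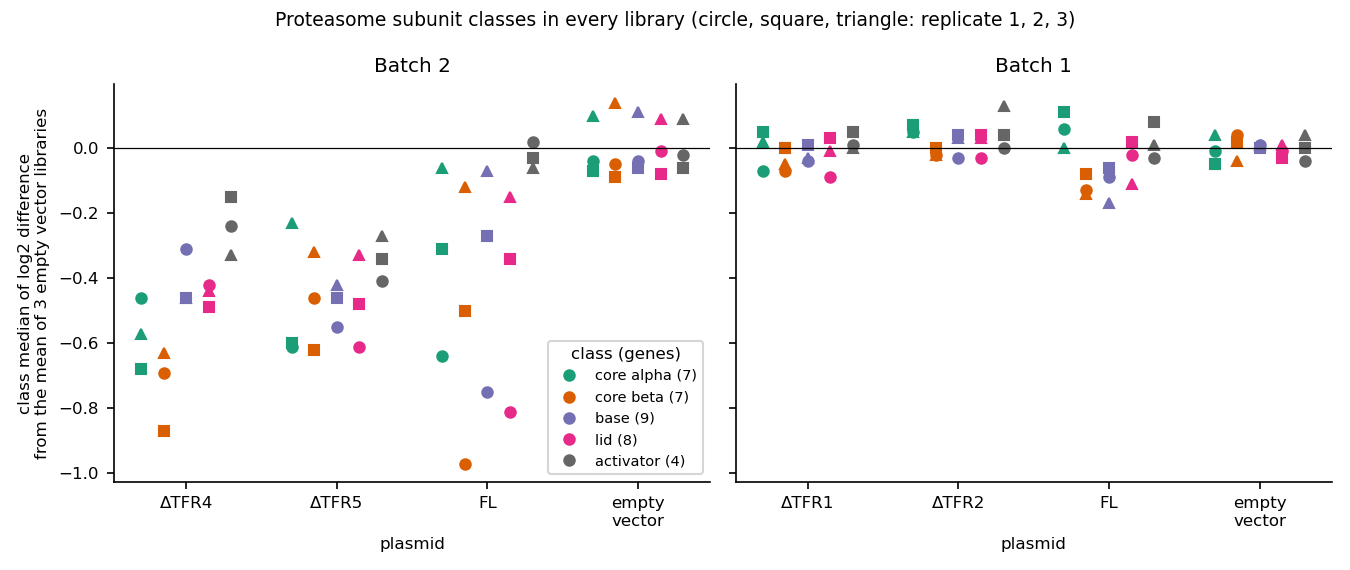
Median log2 difference of 5 subunit classes (core alpha, core beta, base, lid and activator) from the mean of the 3 empty vector libraries, for every library of batch 2 (left) and batch 1 (right); colours are classes, with the number of genes in brackets, and symbols are replicates 1 to 3. In batch 2 all ΔTFR4 and ΔTFR5 libraries lie below all empty vector libraries for core alpha, core beta, base and lid, the FL libraries run from -0.97 to -0.12 for core beta, and in batch 1 the medians of these 5 classes lie between -0.17 and 0.13.

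The lid subunit PSMD11, which clamps the lid to the core, had the lowest adjusted p. It had 180, 180 and 172 CPM in ΔTFR4 cells, 179, 175 and 186 in ΔTFR5 cells, 195, 210 and 272 in FL cells and 295, 303 and 323 in empty vector cells. All 6 deletion libraries lay below the FL libraries, and all FL libraries lay below the empty vector libraries. The log2 fold change against empty vector was -0.79 ± 0.12 (SE) with ΔTFR4 (adjusted p = 0.00142) and -0.77 ± 0.12 with ΔTFR5 (adjusted p = 0.00347), with n = 3 libraries a group here and below.

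PSMB2, a beta subunit without a catalytic site of its own, had 189, 173 and 171 CPM with ΔTFR4, 188, 186 and 203 with ΔTFR5, 184, 218 and 298 with FL and 320, 343 and 343 with empty vector. No library that carried SLNCR reached the lowest empty vector library. It fell by 0.92 ± 0.15 on the log2 scale with ΔTFR4 (adjusted p = 0.00179) and by 0.80 ± 0.15 with ΔTFR5 (adjusted p = 0.0074). The calls on PSMB2 and PSMD11 held in both deletions whichever of the libraries compared was left out.

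The 2 large base scaffolds moved with them. PSMD2 had 389, 354 and 386 CPM with ΔTFR4, 389, 367 and 442 with ΔTFR5, 365, 541 and 609 with FL and 702, 711 and 779 with empty vector. It fell by 0.96 ± 0.16 with ΔTFR4 (adjusted p = 0.00198) and by 0.87 ± 0.16 with ΔTFR5 (adjusted p = 0.00701). PSMD1, the scaffold that holds the ubiquitin receptor ADRM1, had 89.5, 89.7 and 93.8 CPM with ΔTFR4, 102, 95.9 and 127 with ΔTFR5, 102, 113 and 172 with FL and 173, 173 and 185 with empty vector. Its log2 fold change was -0.96 ± 0.17 with ΔTFR4 (adjusted p = 0.00259) and -0.71 ± 0.17 with ΔTFR5 (adjusted p = 0.0224). For both scaffolds all deletion libraries lay below all empty vector libraries, and FL replicate 1 lay among the deletion libraries.

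Among alpha subunits PSMA3 changed most. It had 30.5, 27.6 and 33.4 CPM with ΔTFR4, 34.8, 29 and 41.2 with ΔTFR5, 33.4, 34.4 and 54.7 with FL and 59.5, 56.9 and 67.3 with empty vector. That was a change of -1.01 ± 0.19 with ΔTFR4 (adjusted p = 0.00333) and of -0.81 ± 0.19 with ΔTFR5 (adjusted p = 0.0196). An antisense gene, PSMA3-AS1, had 39% as many counts as PSMA3 over batch 2, and no source used here states whether strand was counted, so reads of the pair may be mixed and this value is uncertain. PSMA1, PSMA2, PSMA4 and PSMA5 also fell with ΔTFR4, by 0.52 to 0.66, while PSMA6 (-0.29, adjusted p = 0.221) and PSMA7 (-0.54, adjusted p = 0.0803) did not pass. With ΔTFR5 PSMA3 was the only alpha subunit called.

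The 3 catalytic subunits did not all change. PSMB6, the caspase-like one, had 30.9, 24.6 and 34.6 CPM with ΔTFR4, 44.9, 38.6 and 50.2 with ΔTFR5, 20.2, 40 and 56 with FL and 59.4, 59.9 and 65.6 with empty vector. It fell by 1.04 ± 0.27 with ΔTFR4 (adjusted p = 0.0157), and its ΔTFR5 value was -0.47 ± 0.27 (adjusted p = 0.29). PSMB5, the chymotrypsin-like one and main target of bortezomib, had 54.1, 47.6 and 53.3 CPM with ΔTFR4, 56.7, 52.6 and 54 with ΔTFR5, 38.2, 60.4 and 81.6 with FL and 83.8, 81.5 and 96.5 with empty vector. It fell by 0.76 ± 0.20 with ΔTFR4 (adjusted p = 0.0176), and with ΔTFR5 it was at -0.68 ± 0.20 (adjusted p = 0.0501), just short of the threshold. PSMB7, the trypsin-like one, had 181, 165 and 158 CPM with ΔTFR4, 142, 154 and 144 with ΔTFR5, 93.2, 176 and 149 with FL and 168, 151 and 184 with empty vector, and its groups overlapped. Its log2 fold change was 0.00 ± 0.18 with ΔTFR4 (adjusted p = 0.993) and -0.19 ± 0.18 with ΔTFR5 (adjusted p = 0.533). PSMB3 fell by 0.75 with ΔTFR4, and PSMB1 and PSMB4, at -0.25 and -0.32, did not pass. PSMB10, which replaces PSMB7 in immunoproteasomes, had 13.2, 13 and 15.1 CPM with ΔTFR4, 12.8, 14.7 and 11.3 with ΔTFR5, 6.19, 12.5 and 11.9 with FL and 11.8, 10.8 and 13.6 with empty vector, with 0.19 ± 0.23 for ΔTFR4 (adjusted p = 0.58).

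Of the 6 base ATPases, PSMC2 (-0.41 ± 0.12) and PSMC6 (-0.53 ± 0.17) fell with ΔTFR4, and PSMC1, PSMC3, PSMC4 and PSMC5 had values of -0.20 to -0.42 that did not pass. With ΔTFR5 PSMC2 fell by 0.44 ± 0.12 (adjusted p = 0.0356). PSMD4, a ubiquitin receptor of the base, had 115, 104 and 119 CPM with ΔTFR4, 132, 134 and 144 with ΔTFR5, 67.8, 128 and 151 with FL and 153, 151 and 170 with empty vector. Its deletion libraries all lay below the empty vector libraries, and its values of -0.49 ± 0.21 (adjusted p = 0.112) and -0.20 ± 0.21 (adjusted p = 0.58) did not pass.

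In the lid, PSMD6 fell by 0.60 ± 0.18 with ΔTFR4 and PSMD12 by 0.43 ± 0.12. PSMD12 had 98.1, 94 and 93.2 CPM with ΔTFR4, 82.2, 85.4 and 107 with ΔTFR5, 93.5, 102 and 110 with FL and 130, 119 and 135 with empty vector. It fell by 0.49 ± 0.12 with ΔTFR5 (adjusted p = 0.0236). PSMD14, the metalloprotease that cuts ubiquitin chains off the substrate, had 74.4, 68.1 and 70.1 CPM with ΔTFR4, 49.9, 60.8 and 59 with ΔTFR5, 60.8, 79.9 and 67.5 with FL and 76.8, 70 and 83 with empty vector. It fell by 0.44 ± 0.13 with ΔTFR5 (adjusted p = 0.0472), with groups that did not overlap, and was at -0.11 ± 0.13 with ΔTFR4 (adjusted p = 0.56). The direct comparison of ΔTFR5 with ΔTFR4 called 0 of the 44 members, beside 0.453% of all genes, so this difference between the deletions was not shown. DESeq2 also called 0 there, 1 member had an unadjusted p under 0.05 and the median was 0.01.

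By edgeR 0 of the 4 activators passed in either deletion against empty vector, and 2 had an unadjusted p under 0.05 in each. DESeq2 called 0 with ΔTFR4 and 1 with ΔTFR5, and with GC trends removed edgeR called 1 (PSME2) with ΔTFR4 and 2 (PSME3 and PSME4) with ΔTFR5. PSME1, of the interferon-inducible PA28 cap, had 72.3, 62.6 and 71 CPM with ΔTFR4, 71.1, 75.3 and 72.7 with ΔTFR5, 48.4, 64.6 and 67.8 with FL and 62.5, 58.9 and 67.4 with empty vector. It lay at 0.13 ± 0.13 with ΔTFR4 (adjusted p = 0.522) and 0.21 ± 0.13 with ΔTFR5 (adjusted p = 0.321). PSME2, its partner in that cap, lay at -0.47 ± 0.20 in both deletions (adjusted p = 0.107 with ΔTFR4 and 0.154 with ΔTFR5). PSME3, the nuclear PA28 cap, lay at -0.31 ± 0.14 (adjusted p = 0.131) and -0.45 ± 0.14 (adjusted p = 0.0623). PSME4, the PA200 cap, lay at -0.19 ± 0.13 (adjusted p = 0.328) and -0.26 ± 0.13 (adjusted p = 0.23). The inhibitor PSMF1 lay at -0.14 ± 0.12 (adjusted p = 0.44) and -0.16 ± 0.12 (adjusted p = 0.453).

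The chaperones split. PSMG1, which pairs with PSMG2 to line up the alpha ring, had 29.2, 29.2 and 26.3 CPM with ΔTFR4, 28.2, 25.5 and 34 with ΔTFR5, 34.8, 37.1 and 36.5 with FL and 42.3, 41.2 and 40.8 with empty vector. It fell by 0.55 ± 0.12 with ΔTFR4 (adjusted p = 0.00711) and by 0.50 ± 0.12 with ΔTFR5 (adjusted p = 0.0226). PSMG2 had 48.2, 45.6 and 40.6 CPM with ΔTFR4, 43.7, 45.3 and 44.9 with ΔTFR5, 83.5, 47.9 and 43.4 with FL and 43.3, 43.6 and 41.4 with empty vector, which made 0.07 ± 0.20 and 0.06 ± 0.20 for the deletions. PSMG3 and PSMG4 did not pass. PSMD5, a chaperone of the base, fell by 0.49 ± 0.15 with ΔTFR4 and was at -0.49 ± 0.15 with ΔTFR5 (adjusted p = 0.0528).

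**Figure D3:**
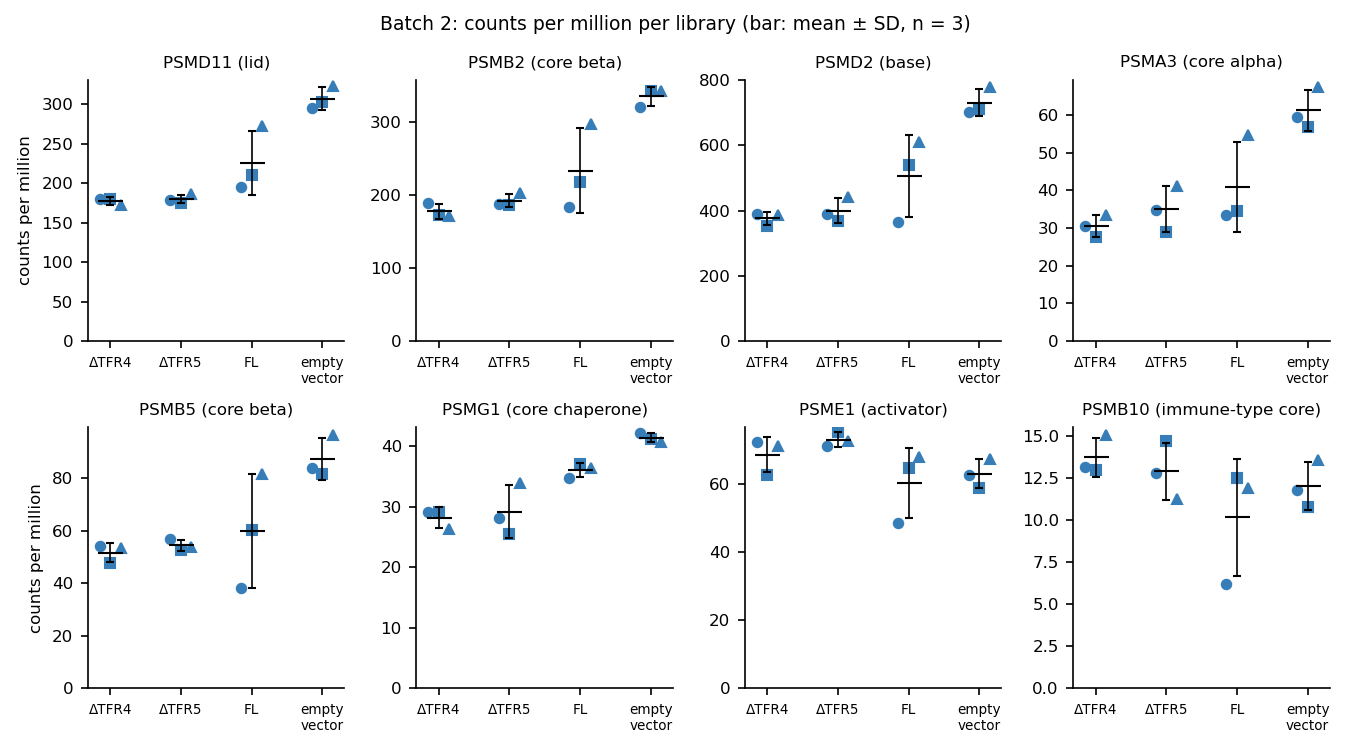
CPM of 8 members in every library of batch 2, with the mean and SD of 3 libraries; circle, square and triangle are replicates 1, 2 and 3, and each vertical axis starts at 0. PSMD11, PSMB2, PSMD2, PSMA3, PSMB5 and PSMG1 are lower in all ΔTFR4 and ΔTFR5 libraries than in all empty vector libraries, while PSME1 and PSMB10 are not.

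With ΔTFR5, 9 of the 44 members fell against empty vector and 0 rose, beside 10.2% of all genes called, 5.48% higher and 4.68% lower, and 6.6% lower of those at 10 CPM or more. The median was -0.45, and 36 of the 44 lay lower with no overlap, which was so for 21.8% of all genes. The core had 2 of 14 called, the base 3 of 9, the lid 3 of 8 and the core chaperones 1 of 4. DESeq2 called 20 members, all lower, beside 15.6% of all genes called. They were 7 in the core, 6 in the base, 4 in the lid, 1 activator, 1 core chaperone and 1 base chaperone. With GC trends removed edgeR called 18, beside 17.6% of all genes, with 6 in the core, 4 in the base, 4 in the lid and 2 activators. With ΔTFR4, 33 of the 44 were lower with no overlap, beside 27.5% of all genes. The 2 deletions shared 8 called members (PSMA3, PSMB2, PSMC2, PSMD1, PSMD2, PSMD11, PSMD12 and PSMG1), 44.4% of the 18 and 88.9% of the 9, but they also shared their empty vector libraries.

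**Figure D4:**
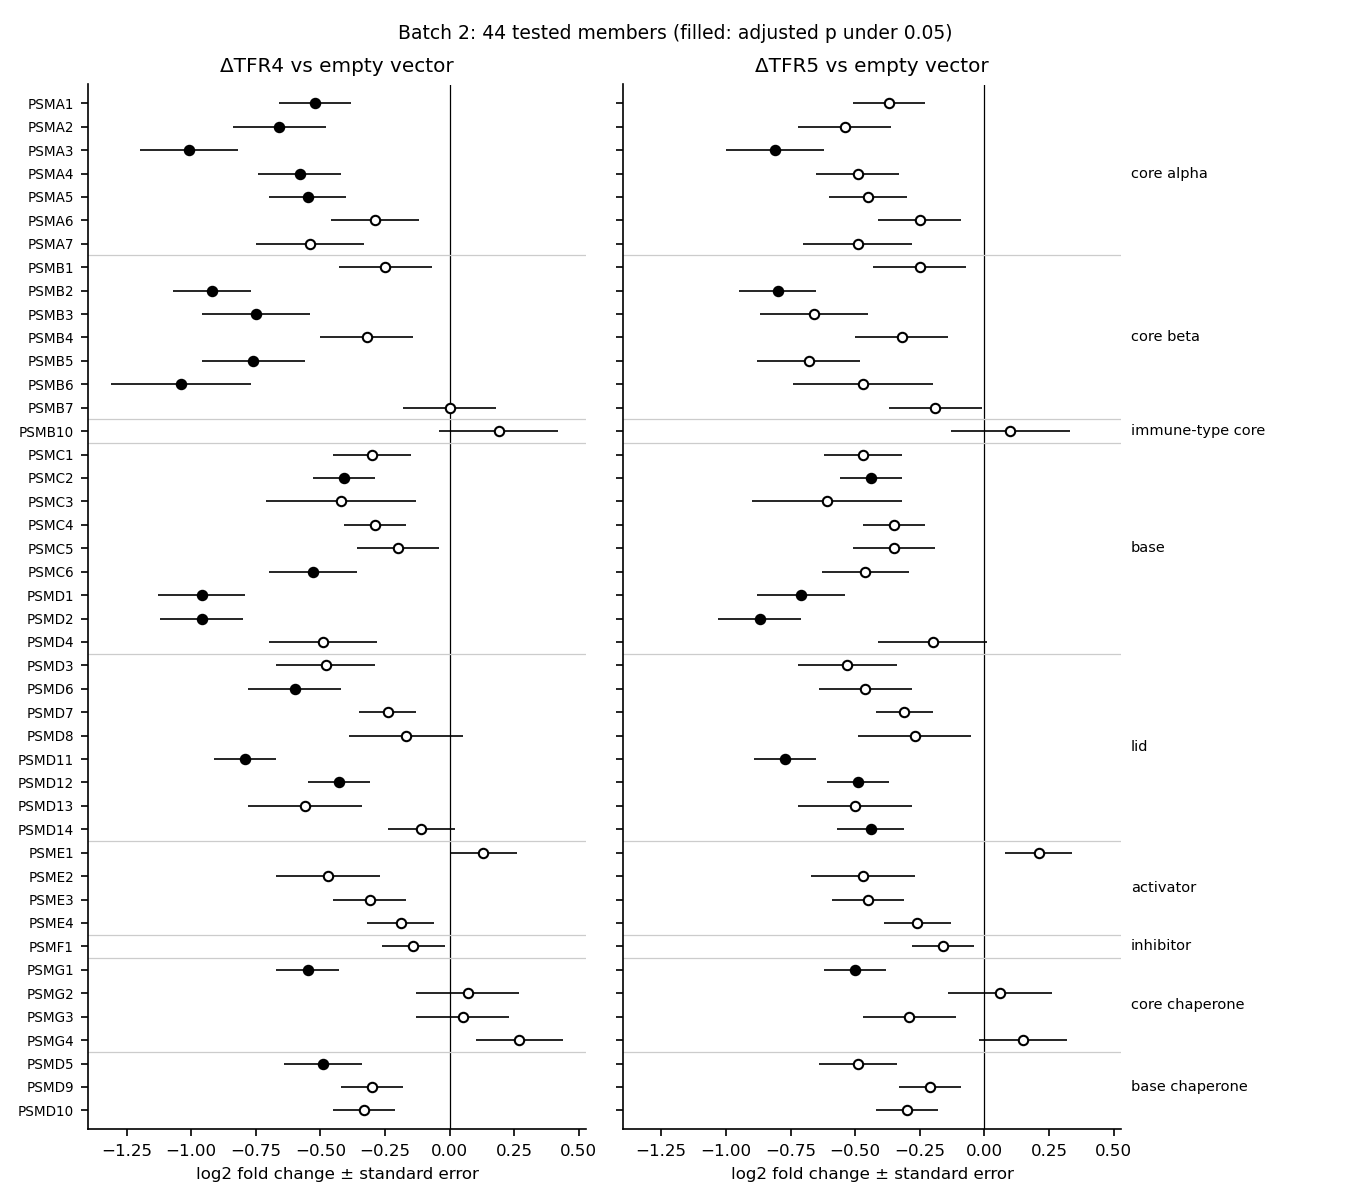
Log2 fold change with its standard error of the 44 tested members in ΔTFR4 (left) and ΔTFR5 (right) against empty vector in batch 2, by class; filled points passed an adjusted p under 0.05. The filled points, 18 on the left and 9 on the right, all lie below 0, and the activators hold none.

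These counts moved with single libraries. Leaving out one of the libraries compared gave 6 to 12 called members with ΔTFR4, all lower. These fits called 11.9% to 15% of all genes in either direction. The count was 10, 6 and 7 without ΔTFR4 replicates 1, 2 and 3, and 10 and 6 without empty vector replicates 1 and 3. With ΔTFR5 leaving out one gave 2 to 10, all lower, beside 2.27% to 8.96% of all genes in either direction. The count was 3 and 2 without ΔTFR5 replicates 1 and 2, and 3 without any 1 of the empty vector libraries. With ΔTFR4, PSMA3, PSMB2, PSMD1, PSMD2, PSMD11 and PSMG1 passed in all 6 of those fits. Without FL replicate 1, which enters only through the shared spread, 31 of 44 members were called in each deletion, beside 38.1% and 23.9% of all genes. Total counts were lower in ΔTFR4 libraries (25782653 to 26395119) than in empty vector libraries (27461768 to 32304543). The epithelial list, of which 6 of 7 genes reached 1 CPM, summed to 420 to 533 CPM with ΔTFR4, 578 to 626 with ΔTFR5 and 585 to 642 with empty vector, and the immune list, which is almost all CD68, to 222 to 254, 203 to 244 and 183 to 198. The part of depth and of these genes in the result was not tested. The rank correlation of expression with GC content overlapped between groups. It was 0.01 to 0.24 with ΔTFR4, -0.13 to 0.28 with ΔTFR5 and 0.02 to 0.21 with empty vector. With these trends removed 20 members were called lower with ΔTFR4, 14 of them among the 18, beside 32% of all genes called. With ΔTFR5 18 members were called lower, 7 of them among the 9, beside 17.6% of all genes called.

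Full-length SLNCR gave 0 called members in batch 2 by edgeR, beside 1.16% of all genes. An unadjusted p under 0.05 was found for 13 members and for 4932 of all 18763 genes. Of the 44 values against empty vector 38 lay below 0, with a median of -0.28, and the core, base and lid medians were -0.38, -0.35 and -0.43. The largest were PSMB6 at -0.67 ± 0.27 (adjusted p = 0.144) and PSMG2 at 0.45 ± 0.20 (adjusted p = 0.171), and the lowest adjusted p was that of PSMD11 at -0.44 ± 0.12 (adjusted p = 0.0714). DESeq2 called 5 members, all lower, beside 9.87% of all genes called in either direction. The 3 FL libraries stood far apart. FL replicate 1 was below all empty vector libraries for 38 members and above all of them for 6. FL replicate 2 was below all of them for 28 members, and FL replicate 3 for 20, with 23 inside the empty vector range.

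Distance between libraries was taken as the root mean square log2 difference over all tested genes. FL replicate 3 lay at a mean of 0.535 from the empty vector libraries and 0.86 from the other FL libraries. Its nearest library was empty vector replicate 1, at 0.516. FL replicate 1 was the most distant library from its own group, at 0.949, and its correlation with GC content was -0.54, beside 0.01 and 0.14 in the other FL libraries. Without FL replicate 3 the test called 20 members, 1 higher and 19 lower, beside 30.7% of all genes. Without FL replicates 1 and 3 the lone FL library, assumed to vary like the other groups, gave 12 called members, beside 21.1%.

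Against FL, edgeR called 1 member in the deletions of batch 2. PSMA4, an alpha subunit, had 134, 119 and 110 CPM with ΔTFR4, 118, 113 and 154 with ΔTFR5, 229, 154 and 174 with FL and 180, 179 and 183 with empty vector. It was lower with ΔTFR4 than with FL by 0.62 ± 0.16 on the log2 scale (adjusted p = 0.0449), beside 4.36% of all genes called, 1.9% higher and 2.47% lower, and the call was lost without any 1 of the 3 ΔTFR4 libraries. By DESeq2 3 members were called with ΔTFR4 against FL, beside 10.1% of all genes. Without FL replicates 1, 2 and 3 edgeR called 8, 2 and 4, all lower, beside 8.89%, 8.12% and 11.4% of all genes. The largest other falls and rises there did not pass: PSMD5 lay at -0.55 ± 0.15 (adjusted p = 0.0541), PSMD1 at -0.50 ± 0.17 (adjusted p = 0.111) and PSMB10 at 0.43 ± 0.23 (adjusted p = 0.269). With ΔTFR5 against FL 0 of 44 passed, beside 1.38% of all genes. DESeq2 called 4, beside 7.52%, and by edgeR 7 had an unadjusted p under 0.05, as did 3897 of all 18763 genes. Without FL replicates 1 and 3 edgeR called 2 and 5, beside 3.1% and 17.9% of all genes. PSMD5 (-0.55, adjusted p = 0.077), PSME3 (-0.53, adjusted p = 0.078) and PSMA4 (-0.53, adjusted p = 0.093) came nearest. The test across all 4 groups called 13 members in batch 2, beside 18.7% of all genes.

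Proteins around the proteasome were followed as a list of 32 genes, all tested. With ΔTFR4 against empty vector 9 of the 32 fell and 5 rose, at a median of -0.11, beside 11.4% of all genes called lower and 12.5% higher. POMP, the chaperone that completes the core, had 39.4, 34.8 and 42.3 CPM with ΔTFR4, 41, 36.5 and 55.9 with ΔTFR5, 34, 43 and 57.7 with FL and 63.8, 61.2 and 71.4 with empty vector. It fell by 0.75 ± 0.19 with ΔTFR4 (adjusted p = 0.0145), a call lost without ΔTFR4 replicate 2 or empty vector replicate 3, and the ΔTFR5 value was -0.56 ± 0.19 (adjusted p = 0.0841). NFE2L1 went the other way, with 428, 418 and 413 CPM with ΔTFR4, 299, 362 and 301 with ΔTFR5, 244, 412 and 272 with FL and 262, 248 and 284 with empty vector. All ΔTFR4 libraries of NFE2L1 lay above all libraries of the other groups, and it rose by 0.66 ± 0.17 (adjusted p = 0.0136), a call lost without empty vector replicate 1 or 2.

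The small MAF genes MAFF, MAFK and MAFG, whose proteins pair with NFE2L1, also rose with ΔTFR4, by 1.84, 0.98 and 0.48. The MAFF call held without any 1 of the 6 libraries compared, the MAFK call was lost without any 1 of 4 of them and the MAFG call without any 1 of the 6. MAFF had 80.6, 77 and 57.3 CPM with ΔTFR4, 23.6, 35.2 and 25.7 with ΔTFR5, 71.3, 97.9 and 30.8 with FL and 24.1, 17.9 and 17.9 with empty vector, and it rose with FL as well, by 1.74 ± 0.33 (adjusted p = 0.0425), a call lost without any 1 of 5 libraries, all but FL replicate 3. VCP, the segregase that pulls ubiquitinated proteins from complexes, and its cofactors UFD1 and NPLOC4 fell with ΔTFR4 by 1.19, 0.91 and 0.56, and UFD1 and NPLOC4 fell with ΔTFR5 by 0.77 and 0.57. The NPLOC4 calls were lost without any 1 of the 6 libraries compared in either deletion, the VCP call without ΔTFR4 replicate 2 and the UFD1 call with ΔTFR5 without any 1 of 3 libraries, while that with ΔTFR4 held. The shuttle genes RAD23B, UBQLN1 and UBQLN2, which carry ubiquitinated proteins to the proteasome, fell with ΔTFR4 by 0.41 to 0.52, of which the UBQLN2 call held without any 1 library, the RAD23B call was lost without any 1 of the 6 and the UBQLN1 call without any 1 of 3. With ΔTFR5 against empty vector 2 of the 32 fell and 0 rose, beside 4.68% of all genes called lower and 5.48% higher. Against FL 0 of the 32 passed in either deletion, beside 4.36% of all genes called with ΔTFR4 and 1.38% with ΔTFR5.

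Promoter motifs were counted among members called and not called with ΔTFR4 against empty vector, and the difference was not tested. Of the 44 members 33 were lower there with no overlap, so those not called were not all unchanged. Of 17 members that fell with ΔTFR4 and have a promoter sequence, 5 held the antioxidant core (PSMA4, PSMB3, PSMD5, PSMD12 and PSMG1), and of 21 that were not called 7 held it, among them PSME1, PSME2 and PSME4. CCAAT was in 9 of the 17 and 8 of the 21. PSMD11, at the lowest adjusted p, had neither, as its sequence above shows.

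In batch 1 the changes were small and went both ways. FL against empty vector called 12 of 44 members, 5 higher and 7 lower, beside 22.7% of all 14310 genes (11.4% higher and 11.3% lower) and 31.5% of the 9789 at 10 CPM or more. The median of the members was -0.03, beside -0.02 for all genes. The alpha subunits PSMA1 and PSMA4 rose, by 0.25 ± 0.06 (adjusted p = 0.00325) and 0.28 ± 0.05 (adjusted p = 0.00124). Beta subunits PSMB3, PSMB4 and PSMB7 fell by 0.28, 0.17 and 0.19, base subunits PSMC1 and PSMC5 by 0.25 and 0.18, lid subunit PSMD3 by 0.25, and PSMB10 by 0.35. PSMD12 of the lid, the activator PSME4 and the chaperone PSMG2 rose by 0.16, 0.17 and 0.33.

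PSMA4 had 240, 249 and 259 CPM with ΔTFR1, 253, 255 and 261 with ΔTFR2, 296, 266 and 324 with FL and 242, 232 and 257 with empty vector. PSMA1 had 157, 152 and 158 CPM with ΔTFR1, 164, 152 and 157 with ΔTFR2, 178, 171 and 208 with FL and 153, 152 and 164 with empty vector. In both genes every FL library lay above all other libraries of the batch. PSMD3 had 194, 197 and 193 CPM with ΔTFR1, 200, 207 and 201 with ΔTFR2, 179, 187 and 157 with FL and 216, 204 and 204 with empty vector, and all its FL libraries lay below the rest. The calls on PSMA1, PSMA4 and PSMD3 against empty vector held whichever of the 6 libraries was left out. The count of 12 was 3, 6 and 5 without empty vector replicate 1, empty vector replicate 2 and FL replicate 3. These fits called 8.17%, 13.4% and 11.9% of all genes.

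Of the catalytic subunits PSMB7 passed in FL against empty vector of batch 1, and of the activators PSME4, with 276, 267 and 262 CPM with ΔTFR1, 256, 245 and 271 with ΔTFR2, 290, 270 and 300 with FL and 242, 255 and 266 with empty vector. PSME1, PSME2 and PSME3 lay at -0.01, -0.16 and 0.03 and did not pass. PSMB5 had 124, 132 and 117 CPM with ΔTFR1, 122, 123 and 121 with ΔTFR2, 117, 121 and 116 with FL and 128, 130 and 125 with empty vector, and its FL difference of -0.12 ± 0.05 did not pass (adjusted p = 0.106). PSMB6 lay at -0.11 ± 0.06 (adjusted p = 0.164), PSMD4 at -0.10 ± 0.05 (adjusted p = 0.13) and PSMF1 at -0.05 ± 0.05 (adjusted p = 0.48). PSMB7 had 204, 215 and 214 CPM with ΔTFR1, 213, 218 and 221 with ΔTFR2, 197, 213 and 180 with FL and 228, 227 and 218 with empty vector, so that its FL libraries were lower than those of empty vector without overlap. PSMB10 had 18.1, 18 and 19.7 CPM with ΔTFR1, 16.2, 18 and 18.6 with ΔTFR2, 15, 15.2 and 13.5 with FL and 19, 19.1 and 17.5 with empty vector.

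These differences correlated with the GC content of the transcripts, and the cause of this was not tested. Across the 44 members, which share libraries and are not independent, Spearman's rho between log2 fold change and GC content was -0.67 for FL against empty vector, 0.62 for ΔTFR1 against FL and 0.61 for ΔTFR2 against FL. Of 17 members at 50% GC or more, 16 lay below 0 in FL against empty vector, and of 16 under 45% GC, 3 did. Over all genes of a library, expression ran with GC content at a rho of -0.60 to -0.37 in the FL libraries and 0.12 to 0.52 in the empty vector libraries. With each library's GC trend removed, 9 members were called, 5 of them among the 12 (PSMA1, PSMA4, PSMB4, PSMC1 and PSMD3), and 2.33% of all genes. The epithelial list, 2 of 7 genes at 1 CPM or more, summed to 415 to 469 CPM in FL cells and 525 to 584 in empty vector cells, and its part in these calls was not tested.

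**Figure D5:**
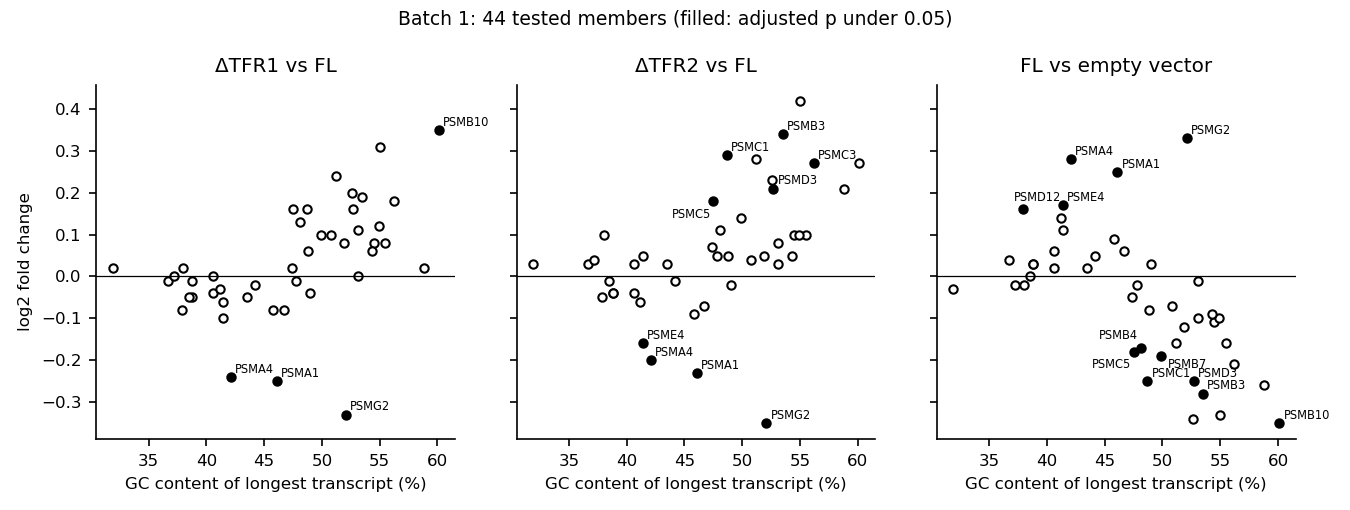
Log2 fold change of the 44 tested members in batch 1 against the GC content of the longest transcript, for ΔTFR1 against FL, ΔTFR2 against FL and FL against empty vector; filled, named points passed an adjusted p under 0.05. The points slope up in both deletions against FL (rho 0.62 and 0.61) and down in FL against empty vector (rho -0.67).

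The deletions of batch 1 differed from FL in the reverse direction. With ΔTFR1 PSMA1, PSMA4 and PSMG2 were lower than with FL, by 0.25, 0.24 and 0.33, and PSMB10 was higher by 0.35, so 4 of 44 were called, beside 10.1% of all genes (4.4% higher and 5.66% lower). With ΔTFR2 PSMA1, PSMA4, PSMG2 and PSME4 were lower, by 0.23, 0.20, 0.35 and 0.16, and PSMB3, PSMC1, PSMC3, PSMC5 and PSMD3 were higher, by 0.34, 0.29, 0.27, 0.18 and 0.21, which made 9 of 44, beside 10% of all genes (4.86% higher and 5.15% lower). Since FL is in all of these comparisons, the reverse direction is no separate observation. Totals were lower in ΔTFR1 libraries (8627449 to 9205603) than in FL libraries (9251647 to 10789211). With GC trends removed 0 members were called with ΔTFR1 and 1 with ΔTFR2, beside 0.119% and 0.245% of all genes. For ΔTFR1 the count was 0, 2 and 2 without ΔTFR1 replicates 1, 2 and 3, beside 0.152%, 5.43% and 6.92% of all genes. It was 12 and 1 without FL replicates 2 and 3, beside 19% and 1.95%. For ΔTFR2 the count was 0 without ΔTFR2 replicate 2 (0% of all genes) or FL replicate 3 (1.28%) and 2 without ΔTFR2 replicate 3 (2.83%). The largest rise there, PSMD8 of the lid at 0.42 ± 0.12 (adjusted p = 0.0606), did not pass.

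Against empty vector, 0 of the 44 members were called with ΔTFR1 and 0 with ΔTFR2, beside 0.00699% and 0.014% of all genes, by edgeR and by DESeq2. ΔTFR2 against ΔTFR1 called 0 as well by both tools, beside 0% of all genes. At an unadjusted p under 0.05 the counts were 1, 1 and 0. The medians of the 44 were -0.01, 0.01 and 0.02, and all 44 values lay between -0.23 and 0.19. The test across the 4 groups of batch 1 called 9 members, beside 13.4% of all genes. Of the 32 other pathway genes, 6 rose and 3 fell in FL against empty vector, beside 22.7% of all genes called and 31.5% of those at 10 CPM or more, with USP14 and TXNL1, which associate with the proteasome, up by 0.30 and 0.32, and ADRM1, a ubiquitin receptor, down by 0.36. POMP lay at 0.11 ± 0.06 (adjusted p = 0.203) and NFE2L1 at -0.16 ± 0.06 (adjusted p = 0.0578) in FL against empty vector. NFE2L1 was higher with ΔTFR2 than with FL by 0.19 ± 0.06 (adjusted p = 0.0494), a call lost without any 1 of 5 of the libraries compared.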

How the data were processed

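RNA was measured by sequencing of rRNA-depleted libraries in 24 samples, per the labels. Tools listed, per the submitters' processing notes and with no role stated, are STAR 2.7.3a, Subread 1.6.2 (featureCounts), cutadapt 2.5, DESeq2 1.24.0 and FastQC 0.11.5, with builds GRCh38 and GRCm38. Batch 1 was deposited as raw counts per gene symbol. Batch 2 was deposited as estimated counts from salmon, of which 83.66% were whole within 0.01; they were rounded. No source used here gives the version of salmon, its annotation or whether strand was used.

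Each batch was fitted apart with edgeR 4.0.16 in R 4.3.3: filterByExpr (minimum count 10, total 15), TMM scaling, and the robust quasi-likelihood test over all 12 libraries, with Benjamini-Hochberg adjustment over 14310 and 18763 genes. The biological coefficient of variation was 0.0503 and 0.212. CPM use TMM library sizes. Standard errors were derived from each F statistic (absolute fold change in log2 units over √F). GC content and length came from GENCODE v29 (GRCh38), for 90.0% and 96.4% of genes. GC trends were removed as a lowess fit (span 0.3) per library. The script was tested on simulated counts. Replicate pairs differed beyond counting noise, with chi-square per gene of 1.5 to 7.12 in batch 1 and 8.44 to 221 in batch 2. Alternatives were DESeq2 1.42.0, other scalings, no filter, 2 groups alone, a replicate block, GC and length removal and left-out libraries. The fits without FL libraries were chosen after seeing the data.

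Members, classes and lists were chosen with earlier results of these data known. Members named are those called (up to 12 a comparison by adjusted p, with the rest of the 18 added by name), the largest changes per class in main comparisons, the catalytic, activator and inhibitor genes, PSMD4, PSMD14, NFE2L1 and POMP, and up to 6 called pathway genes a comparison; the text gives most and not all of these, and RAD23B, UBQLN1 and NPLOC4 were added after their values were seen. Batch 2 lists 32 pseudogenes of members, with at most 1.89% of the parent's counts each.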

Additional observations from a re-analysis of the deposited data

Results flagged for a closer look

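PSMD12, a lid subunit, differed in direction between the batches in FL against empty vector. Its log2 fold change was 0.16 in batch 1, where all 3 FL libraries lay above the empty vector libraries, and -0.33 in batch 2, where all 3 lay below. The difference between the batches was not tested, and the batch 1 value was -0.03 with GC trends removed.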

How the results depend on the processing

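Counts of called members kept within 1.5 times of the reported ones under RLE scaling and no filter in all comparisons, and the direction of a called member reversed only for PSMD12 in FL against empty vector of batch 1 (-0.03 with GC trends removed, -0.03 with the replicate block added, -0.04 with GC and length removed). In batch 1 ΔTFR1 against FL gave 0 with GC trends removed (0.119% of all genes), 0 with GC and length removed (0.105%) and 2 with 2 groups alone (2.18%). ΔTFR2 against FL gave 1, 2 and 5 under these settings (0.245%, 0.287% and 5.2%). The test over 4 groups of batch 1 gave 3 and 3 under the GC settings (0.573% and 0.818%). In batch 2 ΔTFR4 against empty vector gave 35 with 2 groups alone (51.9% of all genes) and 33 without the 3 FL libraries (46.3%). ΔTFR5 against empty vector gave 20 by DESeq2 (15.6%), 34 with 2 groups alone (32%), 18 and 17 under the GC settings (17.6% and 17.6%) and 35 without the FL libraries (34.3%). FL against empty vector gave 5 by DESeq2 (9.87%) and 1 and 1 under the GC settings (4.08% and 4.43%). ΔTFR4 against FL gave 3 by DESeq2 (10.1% of all genes) and 3 and 3 under the GC settings (7.55% and 7.72%). It gave 0 with upper-quartile scaling (4.15%) or 2 groups alone (0.189%). ΔTFR5 against FL gave 4 by DESeq2 (7.52%) and 3 and 4 under the GC settings (4.61% and 4.31%). ΔTFR5 against ΔTFR4 gave 1 with 2 groups alone (6.33%) and 4 without the FL libraries (9.19%). The test over 4 groups gave 24 by DESeq2 (31.1%). The cause was not tested.

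Same-numbered replicates deviated together little (r of -0.13 to 0.18 in batch 1 and -0.14 to 0.20 in batch 2). These low values do not settle whether the numbers pair the samples. Adding a replicate block moved the share of all genes called from 10.1% to 15.6% for ΔTFR1 against FL. For ΔTFR5 against FL it moved from 1.38% to 0.906%. With the replicate block the counts were 8 for ΔTFR1 against FL and 1 for FL against empty vector of batch 2 (2.13% of all genes). With GC trends removed too, they were 2 for ΔTFR1 against FL (0.867%) and 9 for FL against empty vector of batch 2 (10%). They were 4 for ΔTFR4 against FL (8.27%), 2 for ΔTFR5 against FL (4.05%) and 20 for ΔTFR5 against empty vector (18.9%).

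Leaving out 1 library gave, in batch 1, 3 to 17 for FL against empty vector, beside 8.17% to 28.1% of all genes. It gave 0 to 12 for ΔTFR1 against FL (0.152% to 19%) and 0 to 13 for ΔTFR2 against FL (0% to 18.7%). The comparisons of deletions with empty vector and each other gave 0 to 0 (0% to 0.0138%). Over 4 groups it gave 2 to 12 (4.29% to 19.5%). In batch 2 it gave 0 to 20 for FL against empty vector, beside 0.031% to 30.7% of all genes. It gave 0 to 8 for ΔTFR4 against FL (0.406% to 11.4%) and 0 to 5 for ΔTFR5 against FL (0.098% to 17.9%). Against empty vector it gave 6 to 31 for ΔTFR4 (11.9% to 38.1%) and 2 to 31 for ΔTFR5 (2.27% to 23.9%). ΔTFR5 against ΔTFR4 gave 0 to 0 (0.2% to 0.319%), and the test over 4 groups 3 to 31 (6.65% to 39.9%). Of the 88 levels per kilobase, 87 moved by more than their SD with exon union lengths.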
